A study of Laguncularia racemosa with 22 samples.

Results

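The 200 genes described here were those that stood highest in leaves of letter P at 36 h relative to every other group of the series, out of 54696 assembled genes in the deposited count table. Their choice used measured values. Counts were divided by the library total and scaled to give CPM, the counts that a gene would have per 1e6 counts of its library, log2(CPM + 1) was averaged over the libraries of each group, and a gene had to have 10 or more counts in both P 36 h libraries and stand at least 1 unit higher in P than in Q at 36 h. These conditions left 1609 genes. They were ordered by a score, the P 36 h mean minus the highest mean among the other 7 groups, and the 200 with the highest scores were taken.

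The leaves came from wild-type seedlings of *Laguncularia racemosa*, the white mangrove, 8 weeks old and kept at 30 °C by day and 28 °C by night. Sample titles carry a letter, P or Q, and a time. P at 0, 3 and 12 h is labelled as freezing temperature for those hours, and P at 36 h as freezing temperature for 12 h with 24 h of recovery. Q at 0, 3, 12 and 36 h is labelled as control. The treatment text gives 0 °C as the cold, then a day at the growth temperature, and is the same for both letters, so what the Q seedlings received is not stated. Seeds were gathered at 2 places, which the labels do not link to a letter. P at 3 h and P at 36 h held 2 libraries each and the other 6 groups 3 each, 22 in all, with total counts of 13743563 to 18462363. The labels name the leaves of each plant and say nothing further on how libraries relate to plants, so p-values measure only the spread between these libraries, which may be technical.

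Cold slows enzymes, stiffens membranes and limits water supply in leaves of tropical plants, and chilled leaves that are rewarmed have to restore membranes, protein folding and photosynthesis while oxidative damage is repaired. Transcription during rewarming is therefore a phase of its own in studies of chilling. White mangrove grows on warm tidal shores where cold sets the limit of its range. The table gives only Trinity IDs, the names that a de novo transcript assembler assigns, and does not pair them with gene names. No function is given for any gene below, and no nucleotide or protein sequence was used here. At most 4 IDs are printed, and other genes are called by their rank in the score.

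Most of the 200 genes were scarce in the other groups and clearly expressed in both P 36 h libraries. Their median level was 4.65 and 5.35 on the log2(CPM + 1) scale in the P 36 h libraries, against 0.16 to 1.66 in the other 20. In CPM the medians were 24.0 and 39.8 in the P 36 h libraries and 0.12 to 2.17 in the other 20. Together the 200 genes took 4.24% and 5.26% of all counts in the P 36 h libraries, and 0.032% to 0.42% elsewhere. In 199 of the 200 both P 36 h libraries lay above all 20 others, as they did in 10.2% of the 21694 genes tested. The rule chose the genes for this difference, so these values describe the choice. In whole leaves more cells of a type and more RNA per cell cannot be told apart.

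**Figure D1:**
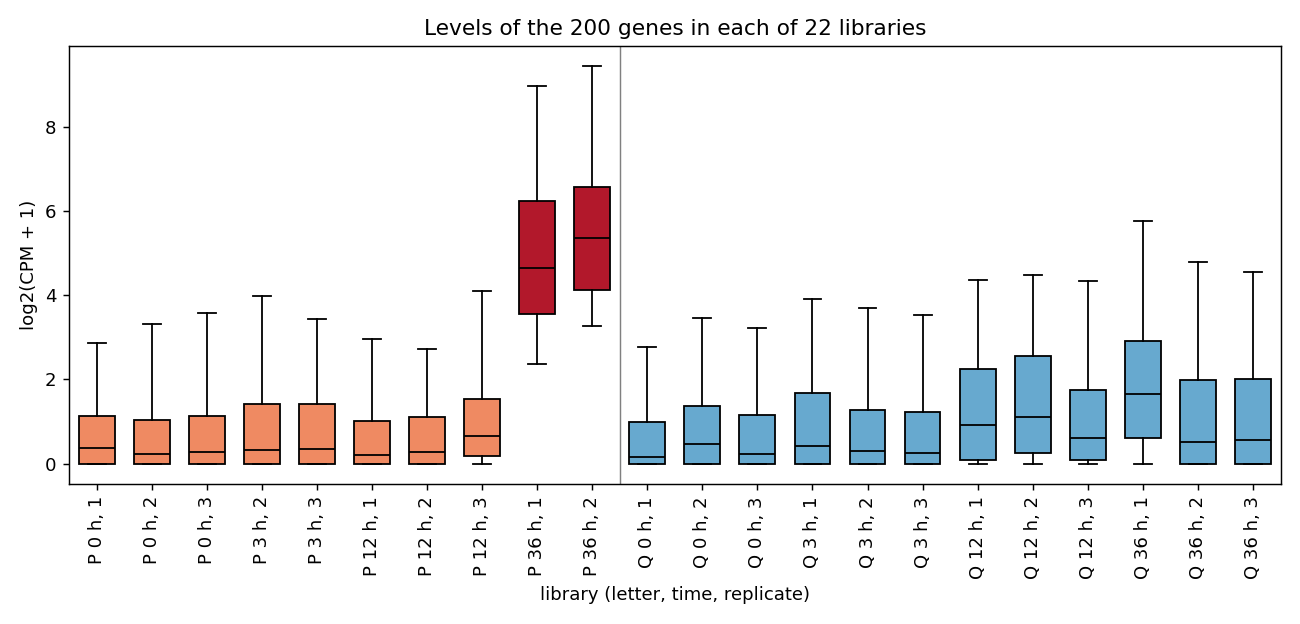
Level of the 200 genes in each library on the log2(CPM + 1) scale, with P libraries on the left and Q libraries on the right of the grey line. Boxes span the quartiles with the median as a line, and whiskers run to the 5th and 95th percentiles. The medians of both P 36 h libraries, 4.65 and 5.35, lie above those of the other 20, of which Q 36 h replicate 1 is highest at 1.66.

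The label given to these genes, raised only in P recovery, held for the size of the level, which the rule set, but for part of them not for its direction. In Q, 57 of the 200 were also higher at 36 h than at 0 h, as described below, and 162 of the 200 had their highest group outside P 36 h in Q. That group was Q at 36 h for 83 genes and Q at 12 h for 62. Among P groups it was 3 h for 15 genes, 12 h for 13 and 0 h for 10, and the remaining Q groups were highest for 13 genes at 3 h and 4 at 0 h. Q has more of the other groups than P, and the same counts over all genes were not made. Of single libraries outside P 36 h, replicate 1 of Q 36 h was the highest for 76 genes, a count that was also not made over all genes.

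**Figure D2:**
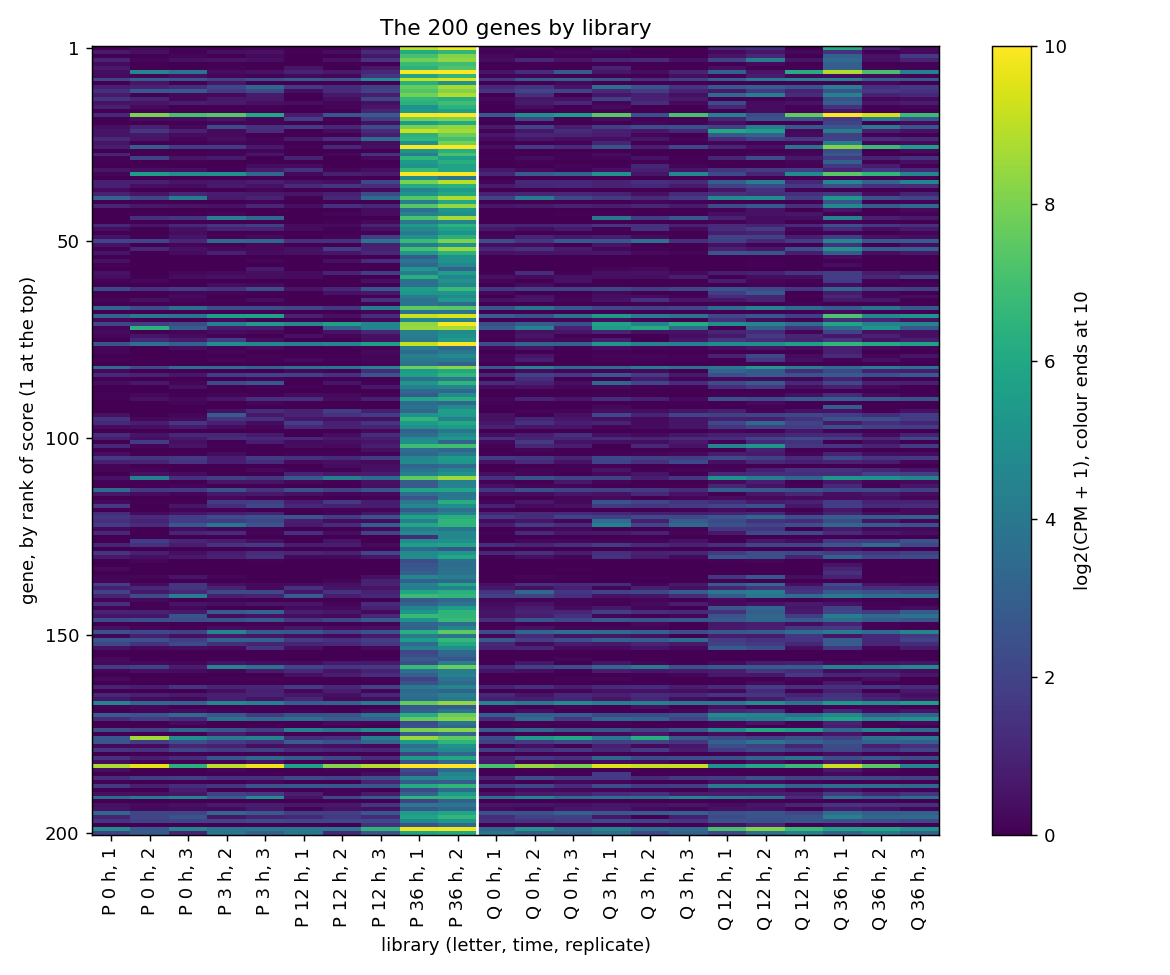
The 200 genes (rows, by rank of score with rank 1 at the top) in the 22 libraries (columns, P left and Q right of the white line), coloured by log2(CPM + 1) with the colour ending at 10. The P 36 h columns are the brightest, Q 36 h replicate 1 is the brightest of the other columns, and single rows such as those ranked 18 and 183 are also bright in libraries of other times.

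The gene of highest score was TRINITY_DN1018_c1_g1, with a score of 6.97. It had 504 and 882 CPM in the P 36 h libraries. Its Q 36 h libraries held 64.3, 0.817 and 0.268 CPM, and the other 17 libraries at most 1.49 CPM. A single Q library, replicate 1 at 36 h, thus held it well above the rest, still below both P 36 h libraries. Its Trinity cluster holds 3 IDs, so reads may be split between near-identical sequences.

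TRINITY_DN20732_c2_g1 followed with a score of 5.84 and is alone in its Trinity cluster. It stood at 70.4 and 98.5 CPM in the P 36 h libraries, against 1.67, 0 and 0.201 CPM in the Q 36 h libraries and 0 to 1.34 CPM in the other 17. No library outside P 36 h came near those levels. The gene ranked 3 had 136 and 277 CPM in P at 36 h, against 7.67, 0.409 and 2.28 CPM in Q at 36 h.

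Some high-scoring genes were nearly silent outside P at 36 h. The gene ranked 5 had 1797 and 2028 counts in the P 36 h libraries and a count in only 4 of the other 20 libraries, the highest being 105 in Q 36 h replicate 1. The gene ranked 10 had 1334 and 557 counts in the P 36 h libraries, against at most 8 in any other library. For the gene ranked 20 the values were 45.6 and 68.7 CPM in the P 36 h libraries and at most 3.07 CPM elsewhere, again in Q 36 h replicate 1. In 4 of the 200 genes the other 20 libraries held no count at all. These 4 averaged 5.15 to 12.2 CPM in P at 36 h, which is at least 558-fold to at least 1327-fold higher when 3 counts summed over the 20 libraries is taken as the floor, a bound that covers counting error only. A further look at low counts showed 30 genes with fewer than 10 counts in each of the 20 libraries, while 76 had at least 1 count in all 20.

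Abundance within the set was very uneven. The gene ranked 18 by score was the most abundant, and by mean CPM in P at 36 h no gene of the whole table exceeded it. It held 14138 and 18522 CPM in the P 36 h libraries, against 1431, 631 and 113 CPM in the Q 36 h libraries. In P it had 1.24, 252 and 134 CPM at 0 h, 163 and 62.5 CPM at 3 h and 0.728, 5.45 and 6.31 CPM at 12 h. Of the P times, 12 h had the lowest mean, but the libraries of 0 and 12 h overlapped. The 0 h library at 1.24 CPM lay below the 12 h libraries at 5.45 and 6.31 CPM. Its log2 difference of 12 h from 0 h in P was -4.82 with an adjusted p of 0.0588 in edgeR and a standard error of 1.84. That p was 0.00298 in DESeq2, and in edgeR 0.0287, 0.045, 0.0479 and 0.0435 on omitting in turn replicate 1 of P 0 h, replicate 2 of Q 3 h and replicates 2 and 3 of Q 12 h. Of 32 alternative settings, 26 left the change uncalled and 6 called it, with an adjusted p of up to 0.155 in edgeR.

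The gene ranked 7 came next in abundance, with 4473 and 6166 CPM in the P 36 h libraries. It had 444, 132 and 19.0 CPM in the Q 36 h libraries. Elsewhere it reached 72.2 CPM in Q 12 h replicate 3 and 24.1 CPM in P 0 h replicate 2, and all other libraries held 13.8 CPM or less.

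The gene ranked 183 followed in abundance and differed in pattern. It held 6143 and 2461 CPM in the P 36 h libraries, yet 421, 772 and 80.5 CPM in P at 0 h, 515 and 845 CPM at 3 h and 51.9, 285 and 464 CPM at 12 h. In Q it had 136, 336 and 246 CPM at 0 h, 700, 561 and 554 CPM at 3 h, 33.9, 64.2 and 107 CPM at 12 h and 573, 173 and 21.9 CPM at 36 h. No library held it below 21.9 CPM, and both P 36 h libraries lay above the rest. Together these 3 genes made up 54.6% of the mean CPM of the 200 in P at 36 h, and the 10 most abundant 72.6%. Without the 3, the others took 1.77% and 2.54% of the counts in the P 36 h libraries, against 0.020% to 0.18% in the other 20.

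Most of the set was of moderate level. Mean CPM in P at 36 h ran from 5.15 to 16330 with a median of 32.5; 44 genes exceeded 100 CPM and 31 lay below 10 CPM. The gene ranked 50 had 113 and 263 CPM in the P 36 h libraries and 1.08 to 24.2 CPM in the other 20. The gene ranked 100 had 26.5 and 39.5 CPM in the P 36 h libraries and 0.328 to 3.92 CPM in the other 20. The gene ranked 150 had 16.0 and 12.2 CPM in the P 36 h libraries and 0 to 2.21 CPM in the other 20. In each of these 3 genes both P 36 h libraries stood clear of the rest.

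Scores ran from 6.97 to 2.48 with a median of 3.19; 52 genes scored above 4 and 119 above 3. No gap separated members from the genes just outside. The last pair inside both scored 2.48, and the first pair outside both 2.47. The gene ranked 200 had 952 and 1130 counts in the P 36 h libraries, against 65 and 139 counts in the first gene outside and 104 and 375 counts in the next. The pair outside the limit was thus scarcer. The gene ranked 176 was the one whose P 36 h libraries overlapped the rest, with 351 and 180 CPM there, against 376 CPM in P 0 h replicate 2 and at most 73.8 CPM in the other 19.

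The P 36 h libraries were not equal for these genes. Of the 200, 169 were higher in replicate 2 than in replicate 1, or 84.5%, against 55.4% of the 16903 other genes with 10 or more counts in both. The median difference of replicate 2 from replicate 1 was 0.61 on the log2(CPM + 1) scale, against 0.04 in the other genes. A difference of more than 1 unit in favour of replicate 2 was seen in 63 genes (31.5%, against 2.33% of the other genes). In favour of replicate 1 it was seen in 6 (3%, against 2.43%). The widest was in the gene ranked 125, with 25 counts in replicate 1 and 391 in replicate 2. The gene ranked 95 went the other way, with 1575 counts in replicate 1 and 340 in replicate 2.

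**Figure D3:**
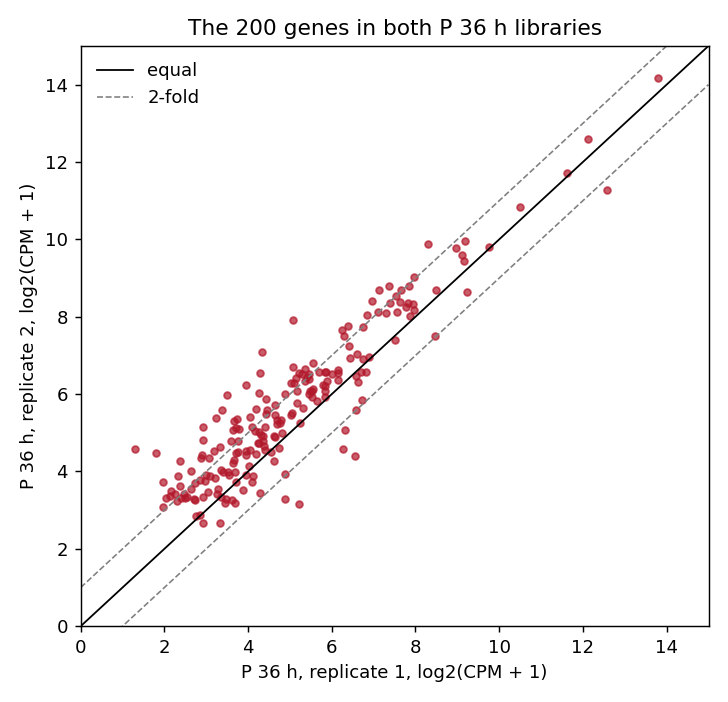
Level of each of the 200 genes in P 36 h replicate 1 (horizontal axis) and replicate 2 (vertical axis) on the log2(CPM + 1) scale, with a solid line of equality and dashed lines at 2-fold. Of the points, 169 lie above the solid line, 63 of them by more than 1 unit.

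The choice of genes was also made with each P 36 h library alone. With replicate 1 as the only P 36 h library, 169 of the 200 genes it chose were the same, and its 200 genes had a median score of 3.46 in replicate 2, which had not been used to choose them. Of these, 192 stood more than 1 unit above the highest other group in replicate 2 and 3 did not exceed it. Choosing with replicate 2 alone gave 177 of the same genes. Its 200 genes had a median score of 2.84 in replicate 1, with 195 more than 1 unit above the highest other group and 1 not above it. Both choices took the genes as low in the same 20 other libraries against which the scores were then read, so the scores in the replicate not used for choosing are partly set by the choice and are given as a description.

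Related assembled sequences occurred within the set. The 200 genes lay in 194 Trinity clusters, and 11 of them shared a cluster with another of the 200, in 5 clusters. With any ID of the table, 46 shared a cluster, or 23% against 29.5% of all IDs. Counts of such genes are uncertain, since reads may be divided between near-identical sequences.

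The largest of the 5 clusters held the genes ranked 18, 93 and 106, and these did not share a course before 36 h. In P the gene ranked 93 had 14, 37 and 13 counts at 12 h, against 0 in all 3 libraries at 0 h. Over the same interval TRINITY_DN275_c0_g2, ranked 106, fell to 0.218, 0.341 and 0.191 CPM at 12 h, against 0.768, 0.984 and 1.95 CPM at 0 h (log2 -2.15, standard error 0.67, adjusted p 0.0181 in edgeR). Its adjusted p was 0.093 with replicate 3 of P 0 h omitted, and 0.0577 and 0.0714 with replicates 1 and 3 of P 12 h omitted in turn. Counts summed over the cluster gave a log2 of -4.34 with an adjusted p of 0.064, so the opposite directions hold only for the IDs taken apart. Both were at their highest in P at 36 h, with 161 and 802 counts for the gene ranked 93 and 425 and 615 counts for that ranked 106.

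The next question was whether these genes had already moved in P during the cold, before recovery. The comparisons that follow hold no P 36 h library, though those libraries entered the filter, the scaling and the pooled spread. The rule used the highest of the other group means, which kept all of them below that of P 36 h. It also set Q 36 h directly against P 36 h. All 200 genes passed the filter on low counts, but 56 did so only through the P 36 h libraries; these were scarce elsewhere. The other 144 also passed without those libraries. Calls are adjusted p-values under 0.05 in edgeR's quasi-likelihood test over all 21694 genes. Counts at an unadjusted p under 0.05 in that test are given without the share of all genes, which was not counted.

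Up to 12 h in P, calls were made in both directions. From 0 to 12 h, 20 genes rose (10% of the 200, against 15.5% of all genes tested) and 4 fell (2%, against 16.6%). From 0 to 3 h, 12 rose (6%, against 3.77%) and none fell (against 1.49%), with 7 lower at an unadjusted p under 0.05 and 3 lower by DESeq2. In P at 0 h, 31 of the 200 had no count in any library, so that a fall could not be seen in those. Only 74, 69 and 72 had 10 or more counts in replicates 1, 2 and 3 of P 0 h, so falls were hard to call in many others. When the P 36 h libraries were left out of fit and filter, 21 of the 144 genes tested rose to 12 h (14.6%, against 17.2% of all genes tested) and 3 fell (2.08%, against 16.5%). To 3 h, 12 of the 144 rose (8.33%, against 4.18%) and 0 fell (against 1.61%). Over the 200 genes the median log2 change to 12 h was 0.18 and to 3 h 0, against -0.04 and -0.02 over all genes. With genes at 0 counts in a whole group set to their bound and those at or under 3 counts in both groups left out, these medians were 0.52 and 0.20. Library totals in place of trimmed-mean scaling moved the median of all genes to -0.17 at 12 h. The calls there became 18 rises and 4 falls, for which the shares of all genes are not given here.

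One P 12 h library stood above the others for these genes. Their median was 0.574 CPM in replicate 3, against 0.146 and 0.205 CPM in replicates 1 and 2. Of the 61 with a P 12 h mean above 1 CPM, 40 were highest in replicate 3 (65.6%, against 38.1% of all such genes), and 11 were there more than 4-fold above either other library, as were 0.439% of all such genes. Omitting it gave 15 rises and 6 falls from 0 to 12 h, with the shares of all genes in that fit not given here.

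Among the rises, the gene ranked 93 went furthest by 12 h, at least 26.1-fold higher if the 0 h group is set to 3 counts in all (adjusted p 0.00044 in edgeR). At 3 h it had 6 and 21 counts, against 0 in each 0 h library (adjusted p 0.0142 in edgeR, 0.195 when replicate 3 of P 3 h was omitted and 0.0521 when replicate 3 of P 0 h was). The gene ranked 116 rose to 2.44 and 2.74 CPM at 3 h, against 0.177, 0.0547 and 0.0542 CPM at 0 h, which was 4.74 higher on the log2 scale (standard error 0.91, adjusted p 0.00407 in edgeR). These early levels were small beside those of P at 36 h, which the rule required. The gene ranked 116 had 247 and 1266 counts in the P 36 h libraries. The ranks 93 and 116 were chosen with their values known. The 20 genes that rose by 12 h reached a median of 4.82% of their P 36 h mean at that time, and 10.4% at most. The rule kept P at 12 h well below P at 36 h, so these fractions describe the choice.

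Among the falls without overlap between 12 and 0 h, the larger was that of TRINITY_DN18558_c0_g1, ranked 69 and alone in its cluster. It had 0.873, 0.341 and 1.47 CPM in P at 12 h, against 7.80, 15.1 and 13.6 CPM in P at 0 h (log2 -3.62, standard error 0.80, adjusted p 0.00245 in edgeR). The P 3 h libraries held 763 and 782 counts, and the P 36 h libraries 9782 and 11886 counts. The gene was therefore at its lowest of the P times at 12 h and at its highest at 36 h, with no overlap between the libraries of any 2 P times. Of single libraries, the omission of replicate 3 of P 0 h brought the 12 calls at 3 h to 6, that of replicate 2 of P 3 h to 5, and that of replicate 3 of P 3 h to 4.

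In Q, whose labels read control, the calls went in one direction. From 0 to 12 h, 61 rose (30.5%, against 17.9% of all genes tested) and 0 fell (against 19.9%). From 0 to 36 h, 57 rose (28.5%, against 14.1%) and 0 fell (against 15.3%). No gene was lower in either at an unadjusted p under 0.05, and DESeq2 called 1 lower at 12 h and 0 at 36 h. The log2 change was above 0 in 161 of the 200 at 12 h and in 171 at 36 h, called or not. Its median over the 200 was 1.62 at 12 h and 1.89 at 36 h, against -0.02 and 0.00 over all genes, and with bounded values 1.62 and 1.94. Both comparisons use the same 0 h libraries. With the P 36 h libraries out of fit and filter, 55 of the 144 genes tested rose to 12 h (38.2%, against 18.9% of all genes tested). To 36 h, 54 of the 144 rose (37.5%, against 14.9%). In that fit 0 fell to 12 h (against 20.3%) and 0 to 36 h (against 15.6%). At 0 h the 200 genes were scarce in Q, with 41 at 0 counts in all 3 libraries, so that a fall could not be seen in those. Only 65, 85 and 73 had 10 or more counts in replicates 1, 2 and 3 of Q 0 h, so falls were hard to call in many others. The 61 calls became 39 on omitting replicate 1 or 3 of Q 0 h or replicate 2 of Q 12 h, and the 57 became 36 on omitting replicate 1 of Q 0 h. At 36 h, 29.4% of all genes tested were called in either direction.

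**Figure D4:**
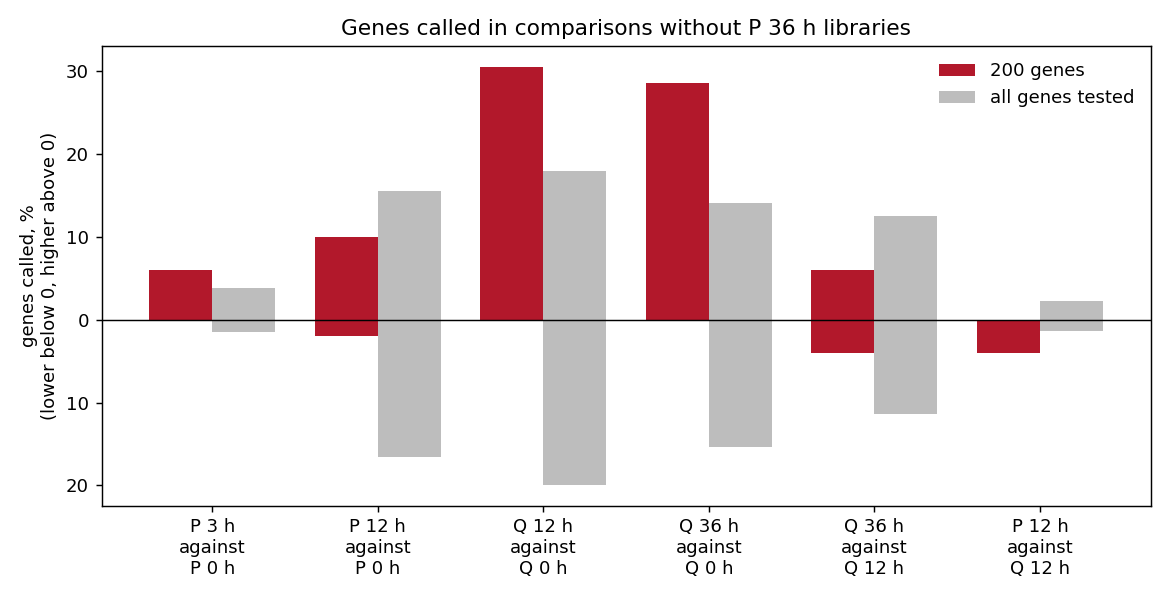
Share of genes called in edgeR (adjusted p under 0.05) in 6 comparisons without P 36 h libraries, with rises above and falls below the zero line, for the 200 genes (red) and all 21694 genes tested (grey). The 200 genes exceed all genes tested in rises of Q at 12 h (30.5% against 17.9%) and at 36 h (28.5% against 14.1%), and have no falls there.

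The levels reached in Q stayed far below those of P at 36 h. Among the 61 genes that rose to 12 h in Q, the Q 12 h mean was a median of 6.68% of the P 36 h mean and 19.5% at most. Among the 57 that rose to 36 h, the Q 36 h mean was a median of 6.28% of the P 36 h mean and 16.8% at most. These were the more abundant genes, with a median of 64.9 CPM in P at 36 h among the 57 and 22.9 CPM among the others. The gene ranked 160 had 10, 9 and 38 counts in Q at 12 h, against 0 in each library at 0 h. With 3 counts in all as the floor at 0 h, this was at least 19.5-fold higher (adjusted p 0.000192 in edgeR; chosen after its values were seen).

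Of the 20 genes that rose to 12 h in P, 16 also rose in Q, or 80% of the P list and 26.2% of the 61 in the Q list. Over all genes tested, 2438 rose in both, or 72.4% of the 3368 that rose in P and 62.9% of the 3874 that rose in Q. No library enters both comparisons. A test of P against Q in their changes from 0 to 12 h called 0 of the 200 genes in edgeR. Of all genes tested it called 0.0461% (0.0277% higher and 0.0184% lower). At an unadjusted p under 0.05 in edgeR there were 32 of the 200, 31 of them with the lower log2 change in P. The share of all genes at that p was not counted, so nothing is read from the 32. The same test from 0 to 3 h also called 0, against 0.00461%, with 8 at an unadjusted p under 0.05.

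A single library carried much of the level in Q at 36 h. Replicate 1 of Q at 36 h had a median of 2.17 CPM over the 200 genes, against 0.438 and 0.469 CPM in replicates 2 and 3. It was the highest of the 3 in 143 of the 200 genes. Of the 108 genes with a group mean above 1 CPM, 72.2% were highest in replicate 1, against 42.2% of the 16162 such genes in the whole table. In 26.9% of the 108, replicate 1 was more than 4-fold above either other library, against 0.39% of the 16162. The 200 genes made up 0.42% of its counts, and 0.18% and 0.086% in replicates 2 and 3.

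Replicate 1 of Q at 36 h held the genes at unlike fractions of their P 36 h level. The fraction had a median of 6.27%, with quartiles of 2.25% and 10.0% and a range of 0% to 34.3%. For comparison, the median fraction was 1.39% in replicate 2 and 1.32% in replicate 3. Both P 36 h libraries stood above this library in all 200 genes. Leaving it out, 38 genes rose from 0 to 36 h in Q (against 13% of all genes tested) in place of 57, and 196 of the 200 genes were still chosen by the rule. The part of this library's state or handling in these values was not tested.

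**Figure D5:**
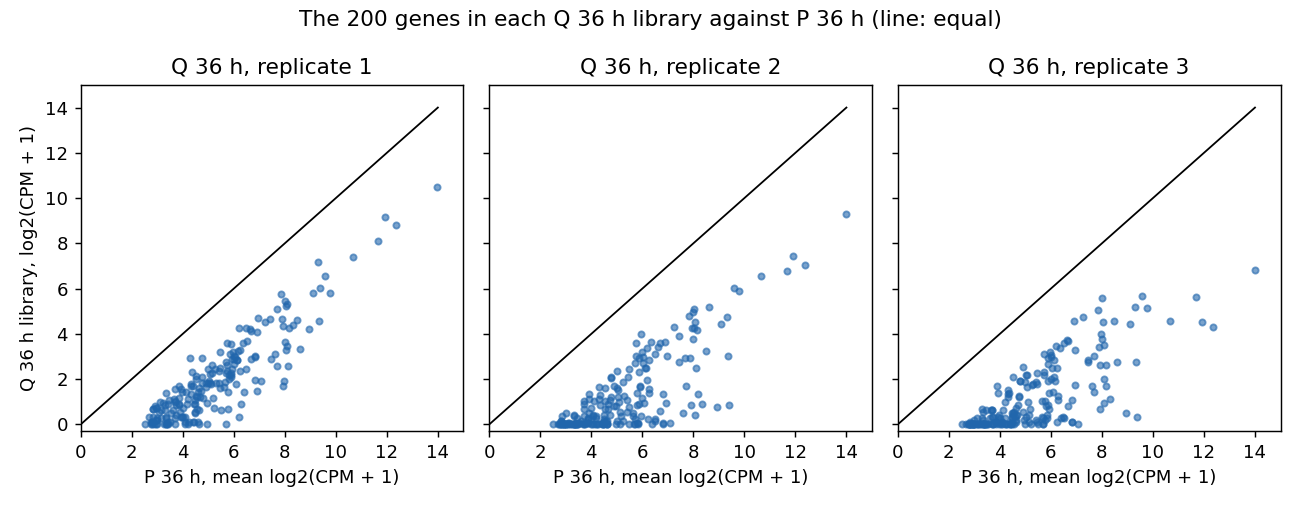
Level of each of the 200 genes in the 3 Q 36 h libraries (vertical axes) against its mean in P at 36 h (horizontal axes), both as log2(CPM + 1), with a line of equality. All points lie below the line, and those of replicate 1 lie nearest to it, with a median of 6.27% of the P 36 h CPM against 1.39% and 1.32% in replicates 2 and 3.

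Single genes showed the same split. TRINITY_DN1018_c1_g1 was higher in Q at 36 h, with 964, 14 and 4 counts, than in Q at 0 h, with 2, 4 and 0 counts (log2 7.45, standard error 1.88, adjusted p 0.00733 in edgeR). Without replicate 1 of Q at 36 h the change was a log2 of 2.26 with an adjusted p of 0.257, so this library carried the call. Summed over its cluster of 3 IDs the change was a log2 of 0.71 (adjusted p 0.0767). TRINITY_DN20732_c2_g1 had 25, 0 and 3 counts in Q at 36 h and 1, 1 and 3 counts in Q at 0 h, a difference of 2.57 on the log2 scale that was not called (adjusted p 0.146 in edgeR, and 0.0455 on omitting replicate 2 of Q 36 h).

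Other genes rose in Q at 36 h in every library. TRINITY_DN18558_c0_g1 had 143, 26.0 and 35.5 CPM in Q at 36 h, against 6.92, 5.05 and 13.5 CPM in Q at 0 h (log2 3.01, standard error 0.63, adjusted p 0.00193 in edgeR). The gene ranked 7 had 444, 132 and 19.0 CPM at 36 h in Q, against 0.465, 1.45 and 6.62 CPM at 0 h (log2 6.12, standard error 1.62, adjusted p 0.00997 in edgeR). The groups of 36 and 0 h did not overlap in either gene. A fit of only the libraries compared gave adjusted p of 0.0576 for the gene ranked 69 and 0.0554 for that ranked 7. In the gene ranked 18 the Q 36 h libraries, from 113 to 1431 CPM, also lay above the Q 0 h libraries, from 6.17 to 45.2 CPM, with a log2 difference of 4.75 and a standard error of 1.76 (adjusted p 0.0563 in edgeR and 0.00339 in DESeq2). On omitting those same 4 libraries in turn, its edgeR p was 0.0316, 0.0427, 0.0463 and 0.0408. Of 32 alternative settings, 25 left this difference uncalled and 7 called it, with an adjusted p of up to 0.154 in edgeR.

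Between 12 and 36 h in Q these genes were called less often than all genes tested, in both directions. There were 12 rises (6%, against 12.5% of all genes tested) and 8 falls (4%, against 11.4%). Without replicate 1 of Q at 36 h they were 5 rises and 15 falls, and without replicate 3 of Q at 12 h 7 rises and 14 falls. The balance thus changed with single libraries. Shares of all genes under these omissions are not given here, so nothing more is read from it. The 20 calls became 10 and 11 on omitting replicates 1 and 2 of Q 12 h in turn. With the P 36 h libraries out of fit and filter, 10 of the 144 genes tested rose (6.94%, against 12.8% of all genes tested). In that fit 4 fell (2.78%, against 12.2%). TRINITY_DN18558_c0_g1 rose to 143, 26.0 and 35.5 CPM at 36 h, against 3.45, 5.50 and 2.65 CPM at 12 h (log2 4.04, standard error 0.68, adjusted p 0.000649 in edgeR). Its Q mean was lowest at 12 h and highest at 36 h, the order also seen in P, though in Q the 12 and 0 h libraries overlapped. TRINITY_DN1018_c1_g1 was also called higher (log2 4.55, standard error 1.42, adjusted p 0.0314 in edgeR). Without replicate 1 of Q at 36 h its change was a log2 of -0.69 with an adjusted p of 0.677. On omitting replicates 1, 2 and 3 of Q 12 h in turn, its adjusted p was 0.0816, 0.0695 and 0.101.

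P and Q were last compared at 12 h, the end of the cold. There 8 of the 200 genes were lower in P than in Q (4%, against 1.31% of all genes tested) and 0 were higher (against 2.26%), with 5 higher at an unadjusted p under 0.05 and 1 higher by DESeq2. The median log2 difference over the 200 was -1.10, against 0.00 over all genes. With the P 36 h libraries out of fit and filter, 6 of the 144 genes tested were lower in P (4.17%, against 1.39% of all genes tested). In that fit 0 were higher (against 3.36%). The gene ranked 102, chosen after its values were seen, had 4, 3 and 12 counts in P at 12 h, against 350, 569 and 34 counts in Q at 12 h (log2 -5.45, standard error 1.07, adjusted p 0.0177 in edgeR). With single libraries omitted, its adjusted p was 0.0759 for replicate 2 and 0.102 for replicate 3 of P 12 h, then 0.0554 for replicate 1 and 0.0703 for replicate 2 of Q 12 h.

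In Q that gene was at its highest at 12 h, and fell to 1.80, 0.934 and 2.35 CPM at 36 h (log2 -3.65, standard error 0.91, adjusted p 0.00875 in edgeR). P held 118 and 123 CPM at 36 h. The 8 calls between P and Q at 12 h, set against 3.57% of all genes tested in either direction, depended on single libraries. They became 0 on omitting replicate 2 or 3 of P 12 h or replicate 2 of Q 12 h, 1 on omitting replicate 1 of Q 12 h, and 16 on omitting its replicate 3. On omitting replicate 2 of P 36 h they became 4. They became 5 on omitting replicate 1 of P 36 h, either library of P 3 h, replicate 1 of Q 3 h or replicate 3 of Q 36 h. A fit of only the libraries compared also gave 0.

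At 36 h, 192 of the 200 genes were called higher in P than in Q, against 8.72% of all genes tested, and 0 lower, against 4.94%. The rule used this comparison, and nothing is read from the count.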

How the data were processed

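The authors deposited 1 table of raw counts, 1 whole number per assembled gene and library. HISAT2, featureCounts and FastQC are named, per the submitters' processing notes; versions, settings and the reference are not given in the sources used here. The 22 value columns matched the samples by letter, time and replicate number, and 0 value columns matched none. Among these columns letter P had no replicate 1 at 3 h and no replicate 3 at 36 h. Members and lists were chosen with earlier results of these data known.

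CPM are counts over the library total. Chi-square divided by the number of genes was 17.8 to 57.2 for the 20 pairs of libraries within groups, so each library counted as a replicate. A gene at 1 CPM rests on 13.7 to 18.5 counts.

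Tests used edgeR 4.0.16 in R 4.3.3: filterByExpr with a minimum count of 10, which left 21694 of 54696 genes, TMM scaling, dispersions over all 22 libraries and 8 groups, and the robust quasi-likelihood test, with Benjamini-Hochberg adjustment within each comparison over all genes tested. Groups of 2 libraries rest on the pooled spread. A standard error is the log2 change over the square root of F. On simulated counts of the comparison of 12 with 0 h in P (21694 genes), 63% of 4-fold and 35% of 2-fold changes were recovered, with 4 false calls among 102. The simulated means were taken over all 22 libraries, P 36 h included, and the changed genes were drawn at random. These rates therefore do not hold for the genes described here, which were scarce at 0 and 12 h.

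IDs printed are the 2 of highest score and the 2 largest decreases at 12 h against 0 h in letter P among called genes without overlap that averaged 1 CPM or more in the other 20 libraries. Others are given by rank: 3, 5, 10, 20, 50, 100, 150, 200 and the 3 most abundant, or as stated. Lists of Arabidopsis gene symbols could not be applied. Alternatives were DESeq2 1.42.0, RLE scaling, library totals, no filter, a filter of 10 counts in 11 or more libraries, calls of 2-fold or more, only the libraries compared, no P 36 h libraries, replicate blocks, summed Trinity clusters, other forms of the rule, and each library left out. Replicate numbers were not taken to pair libraries.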

Additional observations from a re-analysis of the deposited data

How the results depend on the processing

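Of 71 settings other than a left-out library, 60 gave counts within 1.5 times those reported. From 12 to 36 h in Q the 20 genes called became 8 with no filter, 10 with at least 10 counts in at least 11 libraries and 13 with only the libraries compared. For P against Q at 12 h the 8 became 4 with no filter, 0 with only the libraries compared, 14 with summed Trinity clusters and 21 with DESeq2. From 0 to 12 h in P the 24 became 14 with only the libraries compared, which left 75 of the genes tested, and from 0 to 3 h the 12 became 22 with DESeq2. The cause was not tested. Leaving out each library gave 17 to 27 genes from 0 to 12 h in P, 4 to 14 from 0 to 3 h in P, 39 to 66 from 0 to 12 h in Q, 36 to 65 from 0 to 36 h in Q, 10 to 23 from 12 to 36 h in Q and 0 to 16 for P against Q at 12 h. The rises to 12 h in Q were 39 at the lowest and those to 36 h 36 at the lowest, for the libraries named above. Other forms of the rule kept 150 to 199 of the 200 genes, and leaving out a library 169 to 200. Summed over Trinity clusters, the change of the gene ranked 93 was reversed to a log2 of -4.34 at 12 h and -0.15 at 3 h, since its cluster is dominated by the gene ranked 18. Without replicate 1 of Q at 36 h, the change of TRINITY_DN1018_c1_g1 from 12 to 36 h was reversed to -0.69, and the other omissions gave values up to 5.17.

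Same-numbered libraries of one letter did not deviate together (correlations of -0.14 to 0.10 over 30 pairs, none over 0.1). Across letters, same-numbered libraries gave -0.18 to 0.24 over 40 pairs, with 5 over 0.1, so the pairs did not all deviate together and the numbers were not taken as pairing. When replicate numbers entered as a block shared by both letters, the 8 genes of P against Q at 12 h became 5, and as a block within each letter 0; the other 5 comparisons stayed within 1.5 times. With either block TRINITY_DN1018_c1_g1 was no longer called from 12 to 36 h in Q (adjusted p 0.0625 and 0.0622 in edgeR), and with the block within letters neither was the gene ranked 102 for P against Q at 12 h (0.327). Low counts outside P at 36 h limit what can be called, and 56 of the 200 genes passed the filter only through P 36 h. In the P 12 h libraries only 61, 62 and 99 of the 200 had 10 or more counts. In the Q 0 h libraries these were 65, 85 and 73.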
